A study of Rattus norvegicus with 9 samples.

Results

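The proteasome genes of INS-1E cells, an insulin-secreting line grown from a rat insulinoma, were taken as the genes that the deposited expression table assigns to the KEGG proteasome map. Of 20645 genes listed, 45 carried this annotation, and 44 of these passed the filter of a mean of at least 1 FPKM. These 44 were tested among 12958 genes in all. FPKM stands for fragments per gene length and mapped fragments, a level meant for comparison between genes. Polyadenylated RNA was sequenced from 9 libraries, 3 in each group. Cells of the BSA group had received fatty-acid-free bovine serum albumin for 24 h. Cells of the PA group had received 0.5 mM palmitic acid, a saturated fatty acid, and cells of the PA + C3G group 0.5 mM palmitic acid together with 50 µM cyanidin-3-O-glucoside, an anthocyanin pigment of plants. The labels give the agents and the time, and the doses come from the methods of the study. The sample titles of the PA + C3G group name only cyanidin-3-O-glucoside, and the methods state that palmitic acid was given with it. There was no group with C3G alone, and the groups share a single cell line. The methods state biological triplicates for the experiments in general, and for the sequencing that replicate samples of each group were collected. Nothing ties the libraries to separate cultures, so that the p-values measure the spread between these samples.

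The proteasome is the chamber in which cells cut up proteins marked with ubiquitin. Its barrel-shaped core is a stack of rings of alpha and beta subunits, of which the beta subunits hold the cutting sites inside, and the alpha rings close the entrance. A regulatory particle sits on the barrel end, where non-ATPase subunits bind the ubiquitin chain and remove it and a ring of ATPases unfolds the protein and feeds it in. Other caps (activators) can take the place of this particle, and interferon makes cells swap the catalytic beta subunits for immunoproteasome forms. Beta cells make large amounts of proinsulin, and misfolded proinsulin is drawn back out of the endoplasmic reticulum and broken down by proteasomes.

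The libraries held between 45559993 and 66730721 estimated counts, which pile up at multiples of 4, so that the number of independent fragments may be lower than these totals. Correlations between libraries of the same group were 0.963 to 0.972, across genes that are not independent replicates, and no library stood apart. Between libraries of different groups they were 0.935 to 0.9633, the top of which is just above the lowest value within groups, 0.9629. All 9 beta cell markers examined were expressed. Their summed level was 48941 to 49656 FPKM in the BSA group, 22104 to 22618 in the PA group and 46500 to 52115 in the PA + C3G group. Ins1 and Ins2 are among these 9 and made up most of the sum in each group. The acinar, immune and endothelial markers that were listed had a mean under 1 FPKM. Of the fibroblast and other islet cell markers listed, 1 each exceeded it. Listed were 3 of 5 acinar, 4 of 5 immune and 3 of 5 endothelial markers. Of the fibroblast markers 3 of 5 were listed, and of the other islet cell markers 2 of 4. The insulin genes Ins1 and Ins2 took 7.38% to 7.70% of the FPKM sum in the BSA libraries, 2.92% to 3.13% in the PA libraries and 6.94% to 7.90% in the PA + C3G libraries, and the part of this shift in the results below was not tested except by the alternative scalings given beside them. In bulk RNA, fewer cells of a kind and less RNA per cell cannot be told apart.

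Proteasome mRNA fell in the PA group, from the core to the regulatory particle. With an adjusted p-value under 0.05 in the quasi-likelihood test of edgeR, 33 of the 44 tested genes were called, 32 of them lower in PA than in BSA and 1, Psme4, higher. Over all tested genes 51.0% were called, 25.2% lower and 25.8% higher. The median log2 fold change of the proteasome genes was −0.31, a change of −19.5%, beside a median of 0.00296 over all tested genes. The quartiles of the proteasome genes were −0.39 and −0.17, and the extremes were −0.66 for Psmd14 and 0.14 for Psme4. The changes were therefore many and small, and by the study's rule for differentially expressed genes (a fold change above 2 with an unadjusted p-value under 0.05) 0 of the 44 qualified, against 7.56% of all tested genes. The PA libraries lay wholly below the BSA libraries in FPKM for 32 of the 44 genes, against 31.8% of all tested genes, and wholly above them for 1, against 28.0%. With Ins1 and Ins2 left out, the proteasome genes made up 0.654% to 0.689% of the FPKM sum in the BSA libraries. The share was 0.532% to 0.545% in the PA libraries and 0.558% to 0.595% in the PA + C3G libraries, and the 3 groups did not overlap in it. With Ins1 and Ins2 kept in the sum, the PA and PA + C3G libraries overlapped, and both groups stayed below the BSA libraries.

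**Figure D1:**
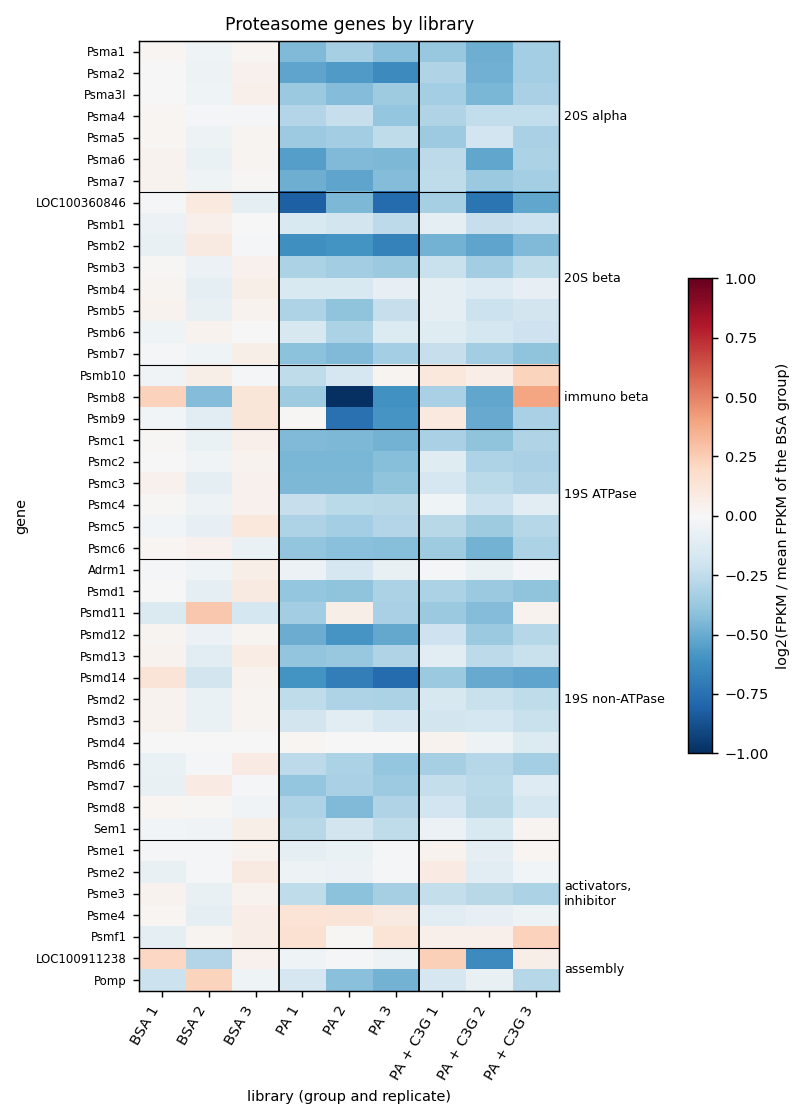
FPKM of the 44 tested proteasome genes (rows, grouped by role) in each of the 9 libraries (columns), as the log2 ratio to the mean of the BSA group, with blue below and red above that mean and the colours capped at −1 and 1. The PA columns are blue through the alpha ring, the beta ring and the ATPase ring and paler among the activators, and the PA + C3G columns are paler than the PA columns in many rows.

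**Figure D2:**
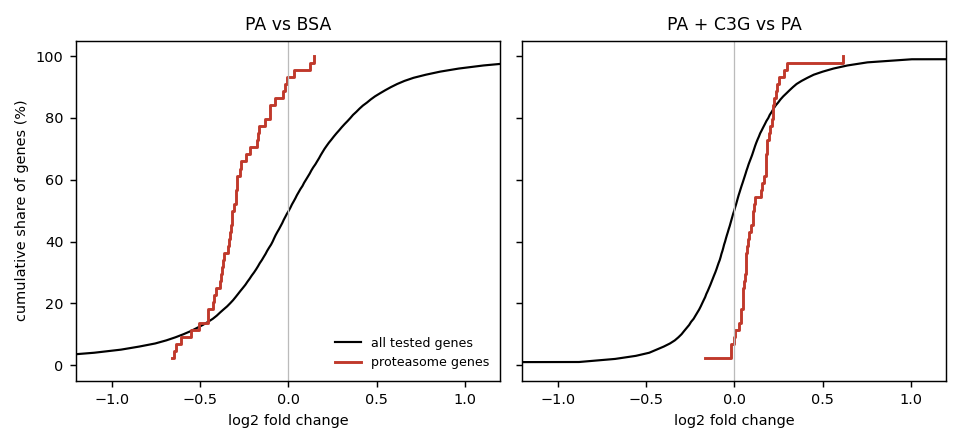
Cumulative share of genes (vertical axis, percent) with a fitted log2 fold change at or below the value on the horizontal axis, for the 44 proteasome genes (red) and all 12958 tested genes (black). For PA versus BSA the red curve lies left of the black at its middle, with medians of −0.31 and 0.00296, and for PA + C3G versus PA it lies right of it, with medians of 0.11 and −0.00073.

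The alpha ring, the gate of the core, was lower throughout. All 7 alpha genes were lower in PA than in BSA, at a median of −0.37 on the log2 scale, and their summed level went from 708 ± 19.3 FPKM (SD, n = 3) in BSA to 517 ± 5.23 in PA and was 558 ± 18.8 in PA + C3G. Psma7, the most abundant proteasome gene in BSA, was at 268, 255 and 264 FPKM in the BSA libraries, 187, 182 and 195 in the PA libraries and 220, 203 and 207 in the PA + C3G libraries. The 3 groups were thus fully separated, with PA + C3G between the others. Its log2 fold change was −0.46 ± 0.04 (SE) for PA versus BSA, with an adjusted p-value of 1.59e-05 by edgeR's quasi-likelihood test, and 0.20 ± 0.04 for PA + C3G versus PA, with an adjusted p-value of 0.0106.

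Psma2 gave the same order, at 133, 128 and 137 FPKM in BSA, 92.0, 89.5 and 85.3 in PA and 108, 95.1 and 105 in PA + C3G. It fell by 31.8% in PA, with a log2 fold change of −0.55 ± 0.06 and an adjusted p-value of 2.53e-05 in edgeR, and was 0.24 ± 0.06 higher on the log2 scale in PA + C3G than in PA (adjusted p-value 0.0139). The other alpha genes had log2 fold changes for PA versus BSA of −0.46 (Psma6), −0.37 (Psma1), −0.36 (Psma3l, the name under which the table lists Psma3), −0.30 (Psma5) and −0.27 (Psma4), and none of these passed the test for PA + C3G versus PA. The mRNA levels of the ring were unequal although the assembled ring holds each alpha subunit once, with Psma7 at 14.5 times the FPKM of Psma4 in BSA. In estimated counts the gap was smaller, with 9051 to 16961 for Psma7 and 2838 to 4945 for Psma4 over the 9 libraries. FPKM divides by the gene model's length, and how far the lengths used fit the transcripts of these cells was not tested.

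The beta ring, which does the cutting, was lower in 7 of its 8 listed genes, with a median log2 fold change of −0.30. Its summed level was 910 ± 15.0 FPKM in BSA, 739 ± 11.7 in PA and 773 ± 22.2 in PA + C3G. Psmb2, a structural subunit without a cutting site, had the smallest adjusted p-value of all proteasome genes. It was at 148, 166 and 154 FPKM in BSA, 102, 103 and 97.9 in PA and 112, 108 and 115 in PA + C3G, so that no PA + C3G library reached the BSA range or came down to the PA range. The log2 fold change was −0.60 ± 0.05 for PA versus BSA, with an adjusted p-value of 6.5e-06 in edgeR, and 0.19 ± 0.05 for PA + C3G versus PA, with an adjusted p-value of 0.0261. In PA it thus fell by 34.2%.

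Of the catalytic subunits, Psmb5 carries the chymotrypsin-like site, which proteasome inhibitor drugs bind first. It was at 85.2, 78.8 and 85.4 FPKM in BSA, 67.2, 62.7 and 71.0 in PA and 77.6, 71.6 and 73.2 in PA + C3G. All PA libraries were below the BSA libraries and all PA + C3G libraries above the PA libraries. The log2 fold change was −0.29 ± 0.06 for PA versus BSA (adjusted p-value 0.00191 in edgeR) and 0.18 ± 0.06 for PA + C3G versus PA (adjusted p-value 0.0439).

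Psmb7, the trypsin-like subunit, was at 103, 101 and 109 FPKM in BSA, 78.2, 76.6 and 82.2 in PA and 88.8, 81.9 and 78.7 in PA + C3G. It fell by 22.8% in PA, with a log2 fold change of −0.37 ± 0.05 and an adjusted p-value of 0.000262 in edgeR, and the PA + C3G libraries overlapped the PA libraries. Psmb6, the caspase-like subunit, was at 112, 117 and 115 FPKM in BSA, 103, 91.8 and 104 in PA and 106, 102 and 99.4 in PA + C3G. Its fall in PA was smaller, −0.18 ± 0.05 on the log2 scale with an adjusted p-value of 0.0165 in edgeR, and this call was lost without PA replicate 2. A near copy of Psmb6 listed as LOC100360846 stood at only 3.62 ± 0.239 FPKM in BSA, and reads of the pair could be split between them, so its log2 fold change in PA of −0.64, whose call was lost without PA replicate 1, is uncertain. The pair summed to 118 ± 2.99 FPKM in BSA, 102 ± 6.44 in PA and 105 ± 3.36 in PA + C3G.

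The remaining beta subunits are structural. Psmb3 fell by 0.32 on the log2 scale and Psmb1 by 0.17, the latter call being lost without PA replicate 3, and Psmb4, the most abundant beta gene at 203 ± 11.1 FPKM in BSA, had a log2 fold change of −0.11 ± 0.04 and an adjusted p-value of 0.0681 in edgeR. Psmb4 did pass, as lower in PA, with limma, with Ins1 and Ins2 left out of an equal FPKM sum and without BSA replicate 2.

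The promoters of Psmb5 and Psmb2 are shown because both genes moved in PA and in PA + C3G and both windows hold the letters TGACNNNGC, the core of the antioxidant response element, a site that NFE2L1 and NFE2L2, the factors known to drive proteasome genes, bind with small Maf proteins. The sequences are RefSeq promoters of the rat build GRCr8, each 300 bases long around the start of the gene, written on the strand of the gene with the match in capitals. The Psmb5 window is chr15:32047330-32047629 on the minus strand, and the Psmb2 window chr5:144254808-144255107 on the plus strand.
Psmb5: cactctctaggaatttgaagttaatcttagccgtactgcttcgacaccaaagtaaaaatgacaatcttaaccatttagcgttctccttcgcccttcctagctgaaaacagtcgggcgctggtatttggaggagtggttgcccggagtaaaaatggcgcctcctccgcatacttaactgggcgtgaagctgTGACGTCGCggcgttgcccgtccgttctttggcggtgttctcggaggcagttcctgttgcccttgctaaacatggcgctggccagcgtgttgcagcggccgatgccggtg
Psmb2: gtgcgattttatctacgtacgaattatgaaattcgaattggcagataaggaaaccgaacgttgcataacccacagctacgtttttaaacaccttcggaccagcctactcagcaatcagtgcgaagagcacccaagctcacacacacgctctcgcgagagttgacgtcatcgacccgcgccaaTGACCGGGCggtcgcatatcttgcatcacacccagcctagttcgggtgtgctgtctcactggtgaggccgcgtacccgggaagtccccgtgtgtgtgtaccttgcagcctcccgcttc

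The match began 60 bases before the start in Psmb5 and 68 bases before it in Psmb2, where it shares its first letter with a CCAAT box. Whether a factor was bound at these letters was not measured.

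**Figure D3:**
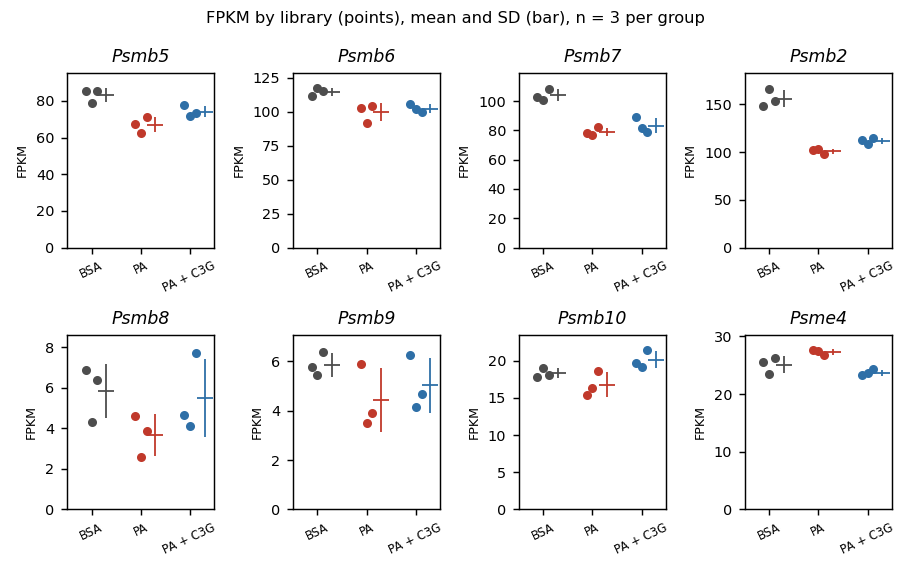
FPKM (vertical axes, each starting at 0) in the 3 libraries of each group (points) with the mean and SD (bars) for the constitutive catalytic subunits Psmb5, Psmb6 and Psmb7, the structural subunit Psmb2, the immunoproteasome subunits Psmb8, Psmb9 and Psmb10 and the activator Psme4. The PA points lie below the BSA points for Psmb5, Psmb6, Psmb7 and Psmb2, spread widely for Psmb8 and Psmb9, and lie above the BSA points for Psme4.

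The ATPase ring, which unfolds substrates, was lower in 6 of 6 genes in PA, at a median of −0.40 on the log2 scale, with a summed level of 427 ± 16.5 FPKM in BSA, 327 ± 2.60 in PA and 358 ± 16.3 in PA + C3G. Psmc3 was at 106, 95.8 and 106 FPKM in BSA, 75.1, 74.8 and 77.6 in PA and 91.2, 84.7 and 83.2 in PA + C3G, without overlap between any pair of groups. It fell by 24.6% in PA, with a log2 fold change of −0.41 ± 0.05 and an adjusted p-value of 0.000112 in edgeR, and was 0.23 ± 0.05 higher in PA + C3G than in PA (adjusted p-value 0.0131). The other ATPases had log2 fold changes in PA of −0.43 (Psmc1), −0.42 (Psmc2), −0.39 (Psmc6), −0.29 (Psmc5) and −0.24 (Psmc4).

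The non-ATPase subunits of the regulatory particle, which receive the ubiquitin chain, were more divided. Of 13 genes, 10 were lower in PA and 3 did not pass, and the summed level was 830 ± 16.1 FPKM in BSA, 695 in PA, where the libraries were at 697, 694 and 694, and 734 ± 18.5 in PA + C3G. Psmd14, the enzyme that cuts the ubiquitin chain off the substrate, had the largest fall of the proteasome genes and fell by 36.6%, a log2 fold change of −0.66 ± 0.09 with an adjusted p-value of 0.000209 in edgeR. Psmd7, its binding partner, fell by 0.33. Psmd12, a subunit of the lid, was at 66.5, 62.7 and 66.3 FPKM in BSA, 46.3, 43.4 and 45.7 in PA and 56.6, 50.3 and 53.5 in PA + C3G, with the PA + C3G libraries between the other groups. Its log2 fold change in PA was −0.51 ± 0.05, with an adjusted p-value of 2.55e-05 in edgeR.

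The scaffold subunits Psmd1 and Psmd2 fell by 0.34 and 0.27 on the log2 scale in PA. Psmd13 fell by 0.33, Psmd8 by 0.33, Psmd6 by 0.30, the small subunit Sem1 by 0.21 and Psmd3 by 0.13. The call of Psmd3 was lost with equal FPKM sums and without BSA replicate 1 or 3 or PA replicate 1 or 3.

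The 3 that did not pass include the ubiquitin receptors Psmd4 and Adrm1. Psmd4, which binds ubiquitin chains, was at 83.0, 82.5 and 83.0 FPKM in BSA, 83.9, 82.7 and 83.1 in PA and 85.0, 80.2 and 75.3 in PA + C3G. These ranges overlapped, and its log2 fold change in PA was 0.03 ± 0.05 (adjusted p-value 0.607 in edgeR). Adrm1 had −0.08 ± 0.04 (adjusted p-value 0.165 in edgeR). The third was Psmd11, a lid subunit, at 30.8, 41.0 and 30.1 FPKM in BSA, 26.7, 35.3 and 27.1 in PA and 26.2, 25.1 and 34.7 in PA + C3G. In each group 1 library was well above the others, and the log2 fold change of −0.17 ± 0.16 had the largest standard error of the non-ATPase subunits.

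**Figure D4:**
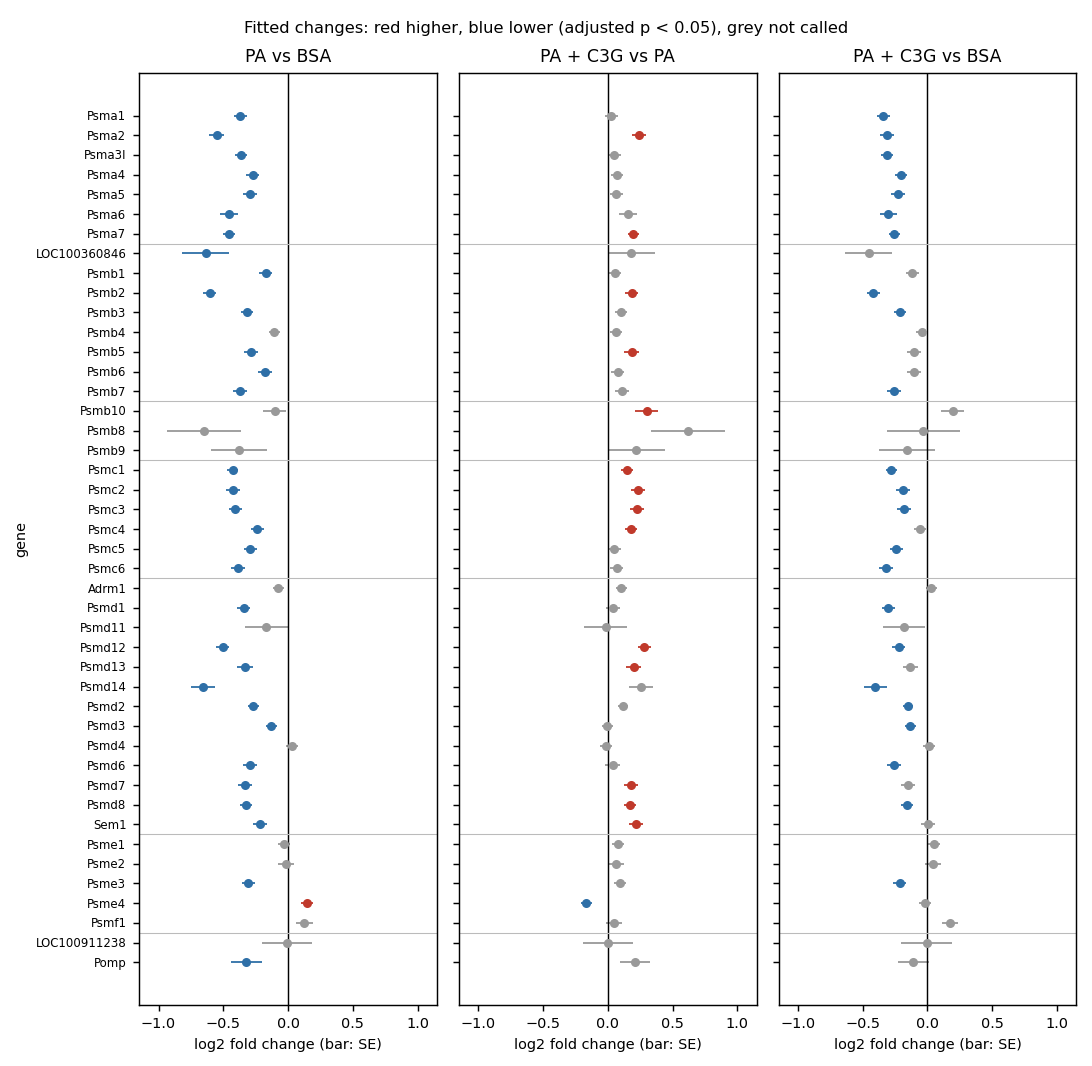
Fitted log2 fold changes (points) with standard errors (bars) of the 44 tested proteasome genes for PA versus BSA, PA + C3G versus PA and PA + C3G versus BSA, in blue (lower) and red (higher) where the adjusted p-value was under 0.05, otherwise in grey. The left panel holds 32 blue points and 1 red point, the middle panel 14 red points and 1 blue point, and the right panel 23 blue points.

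Of the 4 alternative caps and the inhibitor, 1 gene was lower in PA, 1 was higher and 3 did not pass. These counts are near the shares of all tested genes, 25.2% lower and 25.8% higher. The 5 genes summed to 225 ± 7.35 FPKM in BSA, 215 ± 5.39 in PA and 216 ± 6.79 in PA + C3G, with overlapping ranges. Psme1 and Psme2 form the cap that interferon induces. Psme1 was at 62.1, 62.0 and 64.6 FPKM in BSA, 59.1, 60.0 and 62.6 in PA and 64.3, 59.0 and 63.9 in PA + C3G, and its log2 fold change in PA was −0.03 ± 0.05. Psme2 was at 30.8, 32.1 and 34.6 FPKM in BSA, 31.4, 31.2 and 32.0 in PA and 34.5, 30.0 and 31.9 in PA + C3G, with −0.02 ± 0.06. Neither passed the test, with adjusted p-values of 0.611 and 0.840 in edgeR, and their libraries overlapped between groups.

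Psme3, a cap of nuclear proteasomes, moved with the core. It was at 58.9, 54.5 and 58.8 FPKM in BSA, 48.0, 43.1 and 45.6 in PA and 48.7, 47.4 and 46.2 in PA + C3G, all of the latter below the BSA libraries. Its log2 fold change in PA was −0.31 ± 0.05, with an adjusted p-value of 0.000584 in edgeR.

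Psme4, a large cap known from DNA repair and from the removal of histones, went the other way. It was at 25.5, 23.5 and 26.3 FPKM in BSA, 27.6, 27.5 and 26.8 in PA and 23.2, 23.7 and 24.3 in PA + C3G, so that the PA libraries were the highest. Its log2 fold change was 0.14 ± 0.04 for PA versus BSA (adjusted p-value 0.0206 in edgeR) and −0.17 ± 0.04 for PA + C3G versus PA (adjusted p-value 0.0263). The first of these calls was not kept by limma, nor with Ins1 and Ins2 left out of an equal FPKM sum, nor without BSA replicate 1 or 2 or PA replicate 1 or 2, and the second was lost with each PA or PA + C3G library left out in turn. Psmf1, which inhibits the core in the test tube, was at 44.1, 47.7 and 49.0 FPKM in BSA, 52.1, 47.4 and 51.6 in PA and 48.6, 48.6 and 55.2 in PA + C3G. It did not pass, with a log2 fold change of 0.13 ± 0.06 in PA and an adjusted p-value of 0.131 in edgeR.

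The immunoproteasome subunits were scarce and variable, and none passed the test in PA with all libraries. As lower in PA, Psmb8 passed without BSA replicate 2 and Psmb9 without PA replicate 1. Psmb8, which replaces Psmb5, was at 6.86, 4.34 and 6.37 FPKM in BSA, 4.59, 2.57 and 3.85 in PA and 4.68, 4.09 and 7.71 in PA + C3G. Replicates of a group differed by as much as the groups did, and the log2 fold change in PA was −0.65 ± 0.28 (adjusted p-value 0.0834 in edgeR). Psmb9, which replaces Psmb6, was at 5.77, 5.44 and 6.38 FPKM in BSA, 5.90, 3.50 and 3.90 in PA and 6.28, 4.15 and 4.69 in PA + C3G, with a log2 fold change in PA of −0.38 ± 0.22 (adjusted p-value 0.176 in edgeR). Both genes lie in the major histocompatibility complex, Psmb9 at 3973420 to 3978845 and Psmb8 at 3990613 to 3993769 on chromosome 20 in the table, whose genome build is not given in the sources used here.

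Psmb10, which replaces Psmb7, was the most abundant of these. It was at 17.8, 19.1 and 18.0 FPKM in BSA, 15.3, 16.3 and 18.6 in PA and 19.7, 19.2 and 21.4 in PA + C3G. The BSA and PA libraries overlapped, while the PA + C3G libraries lay above both other groups. The log2 fold change was −0.10 ± 0.09 for PA versus BSA (adjusted p-value 0.356 in edgeR), 0.30 ± 0.09 for PA + C3G versus PA (adjusted p-value 0.0381) and 0.20 ± 0.09 for PA + C3G versus BSA (adjusted p-value 0.112).

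Since FPKM is scaled to length, each immunoproteasome subunit was also set against the constitutive subunit it replaces within a library. The percentages depend on the gene lengths used, and how far these fit the transcripts of these cells was not tested. Psmb10 amounted to 17.6% ± 1.19 of Psmb7 (SD, n = 3) in BSA, 21.2% ± 1.53 in PA and 24.3% ± 2.57 in PA + C3G. The log2 ratio was 0.26 higher in PA than in BSA and 0.46 higher in PA + C3G than in BSA, each with a 2-sided exact permutation p of 0.1, which is the smallest that 3 against 3 libraries can give, and 0.45 after Benjamini-Hochberg adjustment over the 9 ratio comparisons. Between PA + C3G and PA it was 0.19 higher, with an exact permutation p of 0.2 and 0.45 after adjustment. Psmb8 amounted to 7.01% ± 1.33 of Psmb5 in BSA, 5.45% ± 1.36 in PA and 7.43% ± 2.70 in PA + C3G, and Psmb9 to 5.12% ± 0.451, 4.43% ± 1.14 and 4.92% ± 0.949 of Psmb6, with exact permutation p-values from 0.2 to 0.8. The thymus subunit Psmb11 was listed at 0, 0.0733 and 0 FPKM in BSA, 0, 0 and 0.0733 in PA and 0.00977, 0 and 0 in PA + C3G, and was not tested.

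Pomp, which helps new core particles to assemble, was at 117, 160 and 133 FPKM in BSA, 122, 102 and 98.4 in PA and 122, 130 and 112 in PA + C3G. The BSA and PA libraries overlapped, and its log2 fold change in PA of −0.32 ± 0.12 passed narrowly, with an adjusted p-value of 0.0431 in edgeR that was lost in 7 alternatives. These were equal FPKM sums, no filter, only the compared groups in the fit, and leaving out BSA replicate 2 or 3 or PA replicate 2 or 3. A near copy, LOC100911238, was at 82.2, 58.2 and 73.5 FPKM in BSA, 69.4, 70.8 and 69.0 in PA and 83.9, 45.8 and 74.5 in PA + C3G. It was low in BSA replicate 2, where Pomp was high, so reads of the pair may have been split unevenly. Together they summed to 208 ± 9.26 FPKM in BSA, 177 ± 12.2 in PA and 189 ± 15.1 in PA + C3G, and each PA sum was below each BSA sum.

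Addition of C3G to PA gave smaller differences, in the direction of the BSA level. In PA + C3G, 15 of the 44 genes were called against PA by edgeR, 14 higher and 1, Psme4, lower. Over all tested genes 21.2% were called, 11.1% higher and 10.2% lower. The median log2 fold change was 0.11, a change of 7.80%, beside −0.00073 over all tested genes, and 40 of the 44 estimates were above 0. By the study's rule 0 of the 44 were differentially expressed, against 1.13% of all tested genes. The PA + C3G libraries lay wholly above the PA libraries for 16 genes, against 15.5% of all tested genes, and wholly below for 1, against 24.0%. This comparison and that of PA with BSA use the same PA libraries, so that a chance deviation of the PA group would give opposite signs in them.

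This count moved with the processing. Giving all libraries an equal FPKM sum left 1 gene higher and 1 lower, where 5.98% of all tested genes were higher and 19.7% lower and the median over all tested genes moved to −0.09. Without Ins1 and Ins2 in that sum, 7 were higher and 1 lower, and limma gave 7 and 1. Leaving out PA replicate 1, 2 or 3 gave 6, 7 and 7 called genes, and leaving out PA + C3G replicate 1, 2 or 3 gave 5, 13 and 4. Psmd12 alone of the 15 kept its call under all the alternatives run, with a log2 fold change of 0.28 ± 0.05 and an adjusted p-value of 0.00469 in edgeR.

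The 14 higher genes came from the core and the regulatory particle alike. From the core, they were Psma2, Psma7, Psmb2 and Psmb5 with the values above, and Psmb10. From the ATPase ring, 4 of 6 passed, with log2 fold changes of 0.24 (Psmc2), 0.23 (Psmc3), 0.18 (Psmc4) and 0.15 (Psmc1). From the non-ATPase subunits, 5 of 13 passed, with 0.28 (Psmd12), 0.22 (Sem1), 0.20 (Psmd13), 0.18 (Psmd7) and 0.17 (Psmd8). Psmd14 and the scaffold Psmd2 lay just outside the threshold, with 0.26 ± 0.09 and 0.12 ± 0.04. Their adjusted p-values in edgeR were 0.0743 and 0.0741, and Psmd14 passed with DESeq2. Psmb8 had the highest estimate, 0.62 ± 0.28, and did not pass (adjusted p-value 0.160).

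Against BSA, the proteasome genes of the PA + C3G group were still lower. By edgeR, 23 of the 44 were called and all of these were lower (28 passed an unadjusted p of 0.05 in either direction, and DESeq2 called 24 lower and 1 higher). Over all tested genes 36.9% were called, 17.9% lower. The median log2 fold change was −0.17, a change of −11.1%, beside 0.00673 over all tested genes. The libraries did not overlap for 28 genes lower in PA + C3G, against 31.1% of all tested genes, and 1 gene higher, against 19.2%. By the study's rule 0 of the 44 qualified, against 4.63%. The alpha ring was lower in 7 of 7 genes, from −0.34 for Psma1 to −0.20 for Psma4, the ATPase ring in 5 of 6, with Psmc4 not passing, and the non-ATPase subunits in 7 of 13. The beta ring was lower in 3 of 8, namely Psmb2 at −0.42 ± 0.05, Psmb7 at −0.26 and Psmb3 at −0.21, and of the caps only Psme3 passed, at −0.21. Psmd14 had a log2 fold change of −0.40 and Psmd12 of −0.22. Leaving out single BSA or PA + C3G libraries lost the calls of Psmc2, Psmc3, Psmd2, Psmd3 and Psmd8.

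Genes that act around the proteasome were examined as lists. NFE2L1 is the factor known to raise proteasome gene transcription when proteasome capacity falls short. It is held in the membrane of the endoplasmic reticulum, drawn out by the SEL1L and SYVN1 ligase with VCP, stripped of sugars by NGLY1 and cut by DDI2. The list of 12 genes also held Btrc, Fbxw7 and Nfe2l2, which are not among these steps, and small Maf genes. In edgeR, 8 of the 12 were higher in PA than in BSA and 1, Btrc at −0.11 on the log2 scale, was lower. Over all tested genes 25.8% were higher and 25.2% lower. Between PA + C3G and PA, 2 were higher with C3G, Btrc at 0.25 and Fbxw7 at 0.22, and 4 were lower. In this comparison 11.1% of all tested genes were higher and 10.2% lower.

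Nfe2l1 was at 94.1, 87.1 and 85.7 FPKM in BSA, 108, 111 and 115 in PA and 102, 105 and 106 in PA + C3G. It rose by a log2 fold change of 0.35 ± 0.04 in PA (adjusted p-value 0.000102 in edgeR) and was 0.29 ± 0.04 above BSA in PA + C3G (adjusted p-value 0.000516), so it was higher where most proteasome genes were lower. Maff, a small Maf partner, was at 3.42, 2.82 and 3.55 FPKM in BSA, 9.59, 10.3 and 10.0 in PA and 7.63, 6.37 and 6.70 in PA + C3G, with log2 fold changes of 1.63 ± 0.11 in PA and −0.49 ± 0.11 in PA + C3G versus PA. Sel1l was at 45.4, 42.4 and 41.4 FPKM in BSA, 97.3, 101 and 98.9 in PA and 72.1, 80.5 and 76.5 in PA + C3G, with 1.23 ± 0.05 and −0.34 ± 0.05. The 3 groups were separated for Maff and Sel1l, in an order opposite to that of Psma7. Ddi2 was at 2.10, 5.55 and 5.01 FPKM in BSA, 5.68, 2.24 and 5.78 in PA and 4.88, 5.69 and 5.18 in PA + C3G, with 1 low library in each of the first groups and an adjusted p-value of 0.797 in edgeR for its log2 fold change of 0.14 ± 0.39 in PA.

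**Figure D5:**
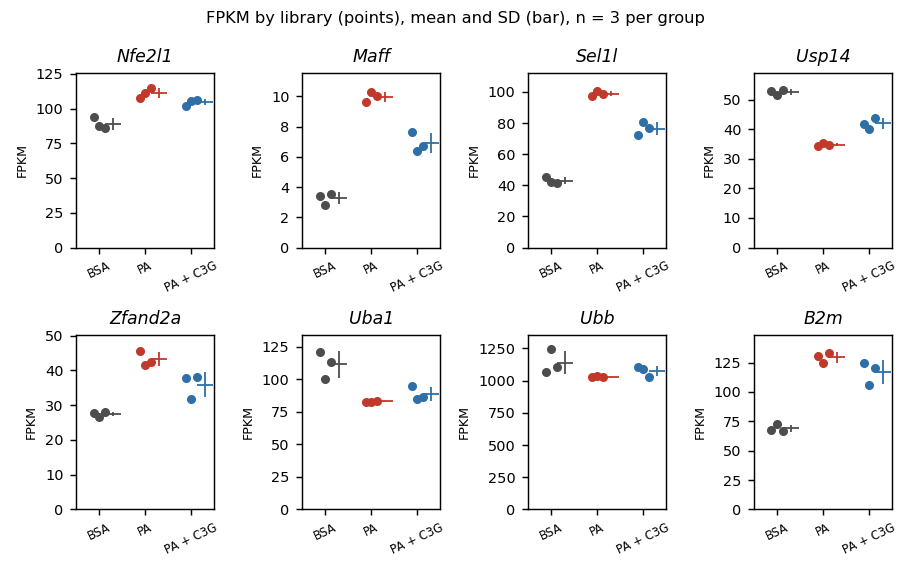
FPKM (vertical axes, each starting at 0) in the 3 libraries of each group (points) with the mean and SD (bars) for 8 genes that act around the proteasome. Nfe2l1, Maff, Sel1l, Zfand2a and B2m had their highest mean in PA and their lowest in BSA, Usp14 and Uba1 had their lowest mean in PA, and the Ubb libraries of the PA group lay close together just below those of the BSA group.

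Among 13 ubiquitin receptors, shuttles, deubiquitinases and ligases that bind proteasomes, 2 were higher and 5 lower in PA than in BSA, and with C3G added 2 were higher and 2 lower than in PA. These counts are not far from the shares of all tested genes, 25.8% and 25.2% in the first comparison and 11.1% and 10.2% in the second. Usp14, a deubiquitinase that docks on the regulatory particle, was at 53.1, 51.5 and 53.3 FPKM in BSA, 34.5, 35.3 and 34.5 in PA and 41.9, 40.1 and 44.0 in PA + C3G. It followed the order of Psma7 with the groups fully separated, and its log2 fold changes were −0.57 ± 0.04 in PA (adjusted p-value 2.99e-06 in edgeR), 0.31 ± 0.04 for PA + C3G versus PA (adjusted p-value 0.00119) and −0.26 for PA + C3G versus BSA. Zfand2a, a stress-induced proteasome-binding protein, went the other way, with means of 27.5 ± 0.666 FPKM in BSA, 43.2 ± 2.02 in PA and 35.9 ± 3.51 in PA + C3G and log2 fold changes of 0.68 ± 0.07 and −0.23 ± 0.07.

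Ubiquitin genes and E1 enzymes were examined next. Ubb, a polyubiquitin gene, was at 1070, 1241 and 1106 FPKM in BSA, 1029, 1037 and 1026 in PA and 1103, 1089 and 1031 in PA + C3G and did not pass, with −0.12 ± 0.05 (adjusted p-value 0.0957 in edgeR), but passed as lower without BSA replicate 1 and with Ins1 and Ins2 left out of an equal FPKM sum. Uba1, the main enzyme that activates ubiquitin, fell by 24.2% in PA, with means of 111 ± 10.6 FPKM in BSA and 83.0 ± 0.416 in PA. Uba6, the other E1 enzyme, was at 7.49 ± 0.143 FPKM in BSA, 8.08 ± 0.535 in PA and 6.34 ± 0.153 in PA + C3G, and passed in PA + C3G versus PA, with a log2 fold change of −0.31 ± 0.05.

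Of 8 assembly chaperones outside the KEGG map, 1 was higher and 2 were lower in PA than in BSA, near the 25.8% and 25.2% of all tested genes. The median log2 fold change of the 8 was −0.029. The lower ones, Psmd9 and Psmd5, guide the base of the regulatory particle. They had log2 fold changes of −0.25 ± 0.07 and −0.23 ± 0.07, with adjusted p-values of 0.0127 and 0.0179 in edgeR. The higher one, Psmg2, changed by 0.31 ± 0.10 (edgeR, 0.0255 after adjustment). Addition of C3G to PA gave −0.33 ± 0.10 for Psmg2 (edgeR, 0.0393 after adjustment). Psmd10 had an estimate of 0.31 ± 0.16 in PA and did not pass. Of 11 tested genes of the interferon response and of class I antigen presentation, which the immunoproteasome serves, 4 were higher and 1 was lower in PA, beside the same 25.8% and 25.2%. The other 6 did not pass, and the median log2 fold change of the 11 was −0.0026. B2m and Stat2 were picked from this list by adjusted p-value and do not stand for it. B2m, the light chain of class I molecules, was at 67.3, 72.8 and 67.1 FPKM in BSA, 131, 124 and 133 in PA and 125, 106 and 121 in PA + C3G, and its log2 fold change in PA was 0.93 ± 0.06 (adjusted p-value 1.87e-06 in edgeR). Stat2, a mediator of interferon signals, had means of 9.15 ± 0.665, 14.6 ± 0.125 and 12.9 ± 0.315 FPKM in the same order and 0.70 ± 0.05 in PA (adjusted p-value 4.0e-06).

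RefSeq promoters were found for 37 of the 45 proteasome genes and searched for 4 motifs on both strands, beside 33465 promoters of the same length in all. TGACNNNGC was present in 7 of the 37 (18.9%) and in 12.1% of all promoters, CCAAT in 18 (48.6%) and in 37.5%, and the endoplasmic reticulum stress response element in 0 and in 0.0657%, its letters being CCAAT, any 9 bases and CCACG. The core of the element through which interferon acts (GAAA, any 2 bases, GAAA) was present in 6 (16.2%) and in 3.92%. A match is a description of the letters in the window and no evidence of binding. Windows with TGACNNNGC of 4 genes beside Psmb5 and Psmb2 are shown because they include Psme4, whose direction was opposite, and genes with large and small falls, each with 15 bases to either side.
Psmb6, chr10:55737849-55737887, plus strand: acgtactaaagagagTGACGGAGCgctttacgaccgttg
Psmd1, chr9:94157791-94157829, plus strand: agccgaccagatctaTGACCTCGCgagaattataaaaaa
Psmd1, chr9:94157978-94158016, plus strand: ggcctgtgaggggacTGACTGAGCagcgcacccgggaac
Psmd3, chr10:84139936-84139974, plus strand: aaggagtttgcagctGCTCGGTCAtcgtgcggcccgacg
Psme4, chr14:108706573-108706611, plus strand: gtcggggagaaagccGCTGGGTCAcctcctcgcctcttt

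The capitals mark the match, which is on the opposite strand in Psmd3 and Psme4. The genes shown ranged in PA from −0.60 (Psmb2) to 0.14 (Psme4), with −0.34 for Psmd1, −0.29 for Psmb5, −0.18 for Psmb6 and −0.13 for Psmd3.

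The windows with this interferon element core of Psmb8, Psmb10 and Psme2 are shown with the match in capitals, since interferon is known to induce these genes.
Psmb8, chr20:4657011-4657050, minus strand: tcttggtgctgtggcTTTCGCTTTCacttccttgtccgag
Psmb10, chr19:50743341-50743380, minus strand: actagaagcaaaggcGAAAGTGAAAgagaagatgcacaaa
Psmb10, chr19:50743285-50743324, minus strand: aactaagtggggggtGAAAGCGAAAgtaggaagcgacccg
Psme2, chr15:33052780-33052819, minus strand: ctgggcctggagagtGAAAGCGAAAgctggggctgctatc

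In Psmb8 the match lies on the opposite strand, begins 4 bases before the start and runs across it. In Psmb10 the matches begin 73 and 17 bases before the start. Psma4, Psmb3 and Psmd7 also held these letters.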

How the data were processed

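Per the labels, the 9 INS-1E libraries were strand-specific and paired-end. The submitters' processing notes name cutadapt 1.9, HISAT2 2.0.4, StringTie 1.3.4d, DESeq2 and edgeR, and the genome build is not given in the sources used here. The authors deposited estimated counts without normalization (whole numbers, with 2040, 4044 and 1276 values at 3, 4 and 5 counts) and FPKM, scaled to gene length and mapped fragments. Genes whose FPKM averaged 1 or more were tested with edgeR 4.0.16 in R 4.3.3 (quasi-likelihood, TMM, all 9 libraries, Benjamini-Hochberg over all tested genes). Standard errors were the log2 fold change divided by the square root of F, and percent changes come from the fitted values.

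Alternatives were median-ratio size factors, equal FPKM sums (TPM scaling), DESeq2 1.42.0, limma 3.58.1 on log2(FPKM + 1) and log2(FPKM + 0.1), fits of the compared groups alone, the filter dropped or raised to a mean of 5 FPKM, the replicate number as a block, counts divided by 4 and leaving out each library. Equal FPKM sums without Ins1 and Ins2 were added after seeing the data. The procedure was tested on simulated data in which few genes were changed, and only in PA. That test cannot check the scaling with which the calls of PA + C3G versus PA moved, since the real changes covered far more genes. The members and lists were chosen with earlier results of these data known. Values per library are given for the 3 members with the smallest adjusted p-value in each direction in PA versus BSA and in PA + C3G versus PA, catalytic subunits, caps, Pomp and members below the filter, and from the other lists for Nfe2l1, Ddi2, Ubb and others by adjusted p-value. Promoters were missing for 8 members. A gene that this rule names and a promoter window are not reported here.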

Additional observations from a re-analysis of the deposited data

How the results depend on the processing

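Of the called members, 27 of 33 kept their call under all alternatives for PA versus BSA, 1 of 15 for PA + C3G versus PA and 18 of 23 for PA + C3G versus BSA, and no called member changed sign. Members not called changed sign under some alternative in 3 of 11, 18 of 29 and 9 of 21 cases. For PA + C3G versus PA, the count of called members was 2 with TPM scaling, 8 with TPM scaling without Ins1 and Ins2, 8 with limma at either pseudocount and 4 to 13 with a library left out. The median log2 fold change was then 0.0178, 0.0829, 0.0698 (pseudocount 1), 0.0706 (pseudocount 0.1) and 0.0806 to 0.1298. For PA + C3G versus BSA, the median was −0.2314 with TPM scaling, −0.2349 without Ins1 and Ins2, −0.2249 and −0.2381 with limma at 1 and 0.1, and −0.2153 to −0.159 with a library left out. For PA versus BSA, it was −0.3536 with TPM scaling without Ins1 and Ins2. Signs turned in PA versus BSA, where no call was at stake, for Psme2 (0.0117 with TPM scaling, −0.0642 to 0.0231 with a library left out), LOC100911238 (0.0189 with TPM scaling, 0.0198 with the replicate block, −0.1437 to 0.0969 with a library left out), Psmd4 (−0.0093 with TPM scaling without Ins1 and Ins2) and Ddi2 (−0.1968 to 0.4627 with a library left out). The causes were not tested.

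Over all tested genes, same-numbered replicates had correlations of their deviations from −0.0918 to 0.0796, and the numbers were not taken to pair the libraries. Over the members alone the correlations were 0.196 to 0.572 for PA versus BSA, 0.129 to 0.189 for PA + C3G versus PA and −0.00386 to 0.433 for PA + C3G versus BSA. With the number as a block, called members were 35 (34 lower), 18 (17 higher) and 24 (23 lower) for the comparisons in the order above. The block added the calls of Psmb8 and Psmb4 in PA versus BSA and of Psmb8, Psmd2 and Psmd14 in PA + C3G versus PA. In PA + C3G versus PA, 3 of 3 libraries correlated best with their own number, as did 2 of 3 in PA versus BSA and 0 of 3 in PA + C3G versus BSA. For Psmb8 and Psmb9 the spread between replicates limits what 3 libraries a group can show. For the near copies of Psmb6 and Pomp a splitting of reads may do so, which was not tested.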
